A study of Mus musculus with 96 samples.

Results

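The microRNA miR-22 was followed in the mouse heart after acute myocardial infarction (AMI), as both of its mature arms, mmu-miR-22-3p and mmu-miR-22-5p. The rows with these 2 names were taken from the table of mature miRNAs of every small RNA-seq library, and they are 2 of 1978 listed mature miRNAs, of which 1561 had a count in at least 1 library. Both arms were found in all 96 libraries. The libraries came from male C57Bl/6J mice and were prepared from haematopoietic cells (HCs), fibroblasts (FBs), cardiomyocytes (CMs) and endothelial cells (ECs), 4 libraries for each cell type and day. Infarction was induced at 12 to 14 weeks of age. The mice of D0 served as controls and were not operated on, and those of D1, D3, D7, D14 and D28 had a permanent ligation of the left anterior descending coronary artery. No sham-operated group is labelled, so each comparison with D0 sets operated against unoperated mice. A library was made from a pool of 3 mice, or of 2 when 1 was lacking. By the study's account the cell types of a day were taken from the same mice, without a statement of which pools shared them. CMs were enriched by centrifugation, HCs and ECs with magnetic beads, and FBs as the remaining cells that adhered to uncoated dishes.

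A miRNA gene is transcribed as a hairpin, and each of its arms can be loaded into an Argonaute protein, where bases 2 to 8 of the mature miRNA, the seed, select the mRNAs to be repressed. miR-22 is known as a miRNA of cardiac and skeletal muscle that promotes the growth of cardiomyocytes under load, with Hdac4 and Sirt1 among its described targets. These roles were described for the 3p arm, while the 5p arm is the strand that is usually discarded.

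The sequences of the arms are shown because the counts of each arm rest on them, and the seeds decide which mRNAs each arm can pair with. In the RefSeq annotation of GRCm38.p6, miR-22-3p lies at chr11:75463772-75463793 and miR-22-5p at chr11:75463734-75463755, both on the plus strand and both 22 bases long. Capitals mark the seed.
mmu-miR-22-3p: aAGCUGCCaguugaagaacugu
mmu-miR-22-5p: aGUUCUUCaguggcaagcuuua
None of the 1738 mature mouse miRNAs in the RefSeq table other than the arm itself had the seed of miR-22-3p, and none had that of miR-22-5p. Both arms are cut from the hairpin Mir22 at chr11:75463716-75463810, on the plus strand, in which capitals mark the 5p arm at bases 19 to 40 and the 3p arm at bases 57 to 78.
Mir22: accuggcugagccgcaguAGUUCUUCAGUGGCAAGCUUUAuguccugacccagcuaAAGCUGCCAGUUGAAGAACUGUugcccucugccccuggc
The longest unbroken Watson-Crick pairing between the arms was 9 bases, between bases 12 to 20 of the 3p arm and bases 1 to 9 of the 5p arm. This run covers the whole seed of the 5p arm. The hairpin lies whole within exon 2 of both annotated transcripts of its host gene Mir22hg, a long non-coding RNA, and within exon 2 of Tlcd2-203, a processed transcript of the overlapping gene Tlcd2. No row of the mature tables was identical to either arm over the 96 libraries.

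The libraries held from 18286 to 65588543 counts of mature miRNAs. The lowest total belonged to HC D0 replicate 3, which stood far from the other 3 HC libraries of D0, and EC D28 replicate 3 and FB D0 replicate 2 were the farthest libraries of their groups by a smaller margin. The cell type labels were checked against known marker miRNAs. All 4 CM markers (such as miR-1a-3p), both EC markers (miR-126a-3p and its 5p arm) and all 3 FB markers (such as miR-214-3p) had their highest median in their own cell type, and 3 of 4 HC markers did. The exception was miR-150-5p, with a median of 2354 CPM (the count of a miRNA scaled to a library of 1e6 mature counts) in ECs and 2290 CPM in HCs. CM markers were also present in the other cell types, with a median sum of 75254 CPM in ECs, 51081 CPM in HCs and 2341 CPM in FBs, against 526119 CPM in CMs. Since the cells were measured in bulk, a lower share of a cell type and less RNA per cell cannot be told apart.

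Of the 2 arms, miR-22-3p was by far the more abundant in every library. It held from 0.0730% to 1.38% of the counts of a library, and the 5p arm had a median of 2.75 counts for every 100 counts of the 3p arm (1.08 to 5.21, n = 96). In the ranking of miRNAs by counts, which no scaling can change, miR-22-3p took places 16 to 29 in CMs, 34 to 50 in FBs, 26 to 47 in HCs and 44 to 70 in ECs. The miR-22-5p arm took places 69 to 100 in CMs, 133 to 159 in HCs, 144 to 173 in FBs and 159 to 194 in ECs. CMs therefore did not overlap with FBs or ECs in the rank of the 3p arm, nor with any other cell type in the rank of the 5p arm.

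**Figure D1:**
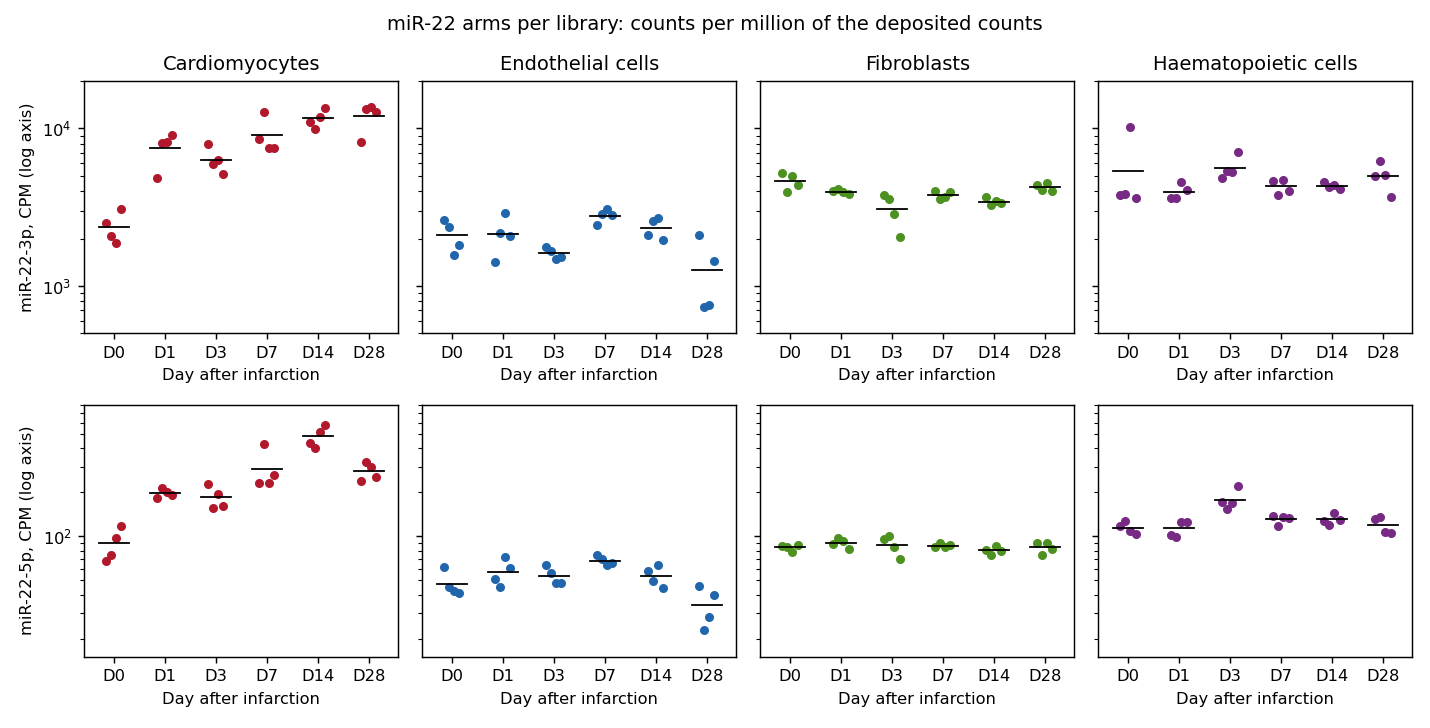
CPM (log axis) of miR-22-3p (top row) and miR-22-5p (bottom row) in each of the 96 libraries by day (x axis), with 1 panel per cell type, a point per library and a line at the mean of the 4 libraries. All CM libraries after D0 lie above those of D0 in both arms on this scale, and HC D0 replicate 3 stands alone at 10172 CPM of miR-22-3p.

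Averaged over all days, both arms were highest in CMs and lowest in ECs. As CPM, miR-22-3p measured 8156 ± 3719 CPM in CMs, 4761 ± 1439 in HCs, 3854 ± 644 in FBs and 2038 ± 647 in ECs (mean ± SD, n = 24 libraries over 6 days). The miR-22-5p arm measured 254 ± 135 CPM in CMs, 132 ± 26.9 in HCs, 85.6 ± 7.27 in FBs and 52.5 ± 13.2 in ECs. These SDs include the changes between days, and in CPM the order of the means did not hold at D0. There miR-22-3p measured 2095 ± 490 CPM in ECs, 2376 ± 522 in CMs, 4629 ± 574 in FBs and 5347 ± 3218 in HCs (3739 ± 124 without HC D0 replicate 3), so that CMs overlapped with ECs and lay below FBs and HCs (mean ± SD, n = 4). In the 5p arm CMs measured 89.5 ± 22.4 CPM at D0 and overlapped with FBs (84.4 ± 4.17) and HCs (115 ± 10.2). Levels were compared between the cell types with edgeR on all 96 libraries, taken as independent although cell types of a day share mice, after scaling with TMM factors, which set the libraries to a common level for most miRNAs and so correct for a few very abundant ones. The 3p arm was higher in CMs by 3.35 on the log2 scale against ECs (SE 0.0941, adjusted p = 6.7e-54), by 2.53 against FBs (SE 0.0908) and by 2.88 against HCs (SE 0.0922). The 5p arm was higher in CMs by 3.59, 3.01 and 3.01 against ECs, FBs and HCs. Of all 712 miRNAs tested, 69.2% were called between CMs and ECs, 75.6% between CMs and FBs and 77.7% between CMs and HCs, so a call alone does not set miR-22 apart. Scaled by library size in place of TMM, the differences of the 3p arm became smaller, at 1.87, 0.92 and 0.62, but kept their direction and passed the test. Unlike in CPM, on the TMM scale the CM libraries lay highest at D0 too, without overlap. There the log2 CPM of miR-22-3p was 13.29 to 14.33 in CMs and at most 12.15 in the other cell types. That of miR-22-5p was 8.63 to 9.63 in CMs and at most 6.41 in the others.

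ECs were the lowest cell type in both arms. On the TMM scale miR-22-3p was lower in ECs than in FBs by a log2 difference of -0.82 (SE 0.0864, 71.5% of all miRNAs called) and lower than in HCs by -0.47 (SE 0.0862, 77.7% called). The values of miR-22-5p were -0.58 in both comparisons. The order of FBs and HCs depended on the scaling. On the TMM scale the 3p arm was 0.35 higher in FBs than in HCs (adjusted p = 0.00014, 85.7% called) and the 5p arm did not differ beyond its error, with 0.00 (SE 0.0842). Scaled by library size only, FBs were lower than HCs by -0.30 in the 3p arm and by -0.61 in the 5p arm, and 90.2% of all miRNAs were called. Input RNA and PCR cycles differed between the cell types (500 ng and 14 cycles in CMs, 50 ng and 16 cycles in ECs, 150 ng and 15 cycles in FBs and HCs), and cannot be told apart from the cell type.

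In CMs, both arms rose from D0 as a share of the library. The 4 CM libraries of D0 held 2492, 2079, 1875 and 3058 CPM of miR-22-3p. The 4 libraries of D1 held 4810, 8056, 8255 and 9137 CPM, those of D3 7993, 5958, 6261 and 5166 CPM, and those of D7 8628, 12754, 7518 and 7467 CPM. At D14 the values were 10988, 9965, 11835 and 13498 CPM, and at D28 they were 8173, 13240, 13775 and 12753 CPM. Every library after D0 thus lay above every library of D0. The miR-22-5p arm did the same, with 68.4, 74.8, 97.7 and 117 CPM at D0 and between 157 and 581 CPM afterwards. It was highest at D14, with 438, 403, 522 and 581 CPM, and lay at 239, 324, 300.2 and 254 CPM at D28. When only library size was used to scale the counts, miR-22-3p changed against D0 by 1.67, 1.42, 1.94, 2.28 and 2.33 on the log2 scale from D1 to D28, and miR-22-5p by 1.14, 1.05, 1.69, 2.44 and 1.64, all past the test. The exact permutation test of CPM gave p = 0.0286 for each arm and day, the smallest that 70 arrangements of 4 libraries against 4 allow.

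This rise was not particular to miR-22. In the same fits 59.3%, 76.4%, 80.2%, 83.1% and 69.2% of all 484 miRNAs were called higher at D1, D3, D7, D14 and D28, and the median miRNA rose by 1.42, 2.37, 2.67, 2.99 and 1.99 on the log2 scale. Hence miR-22-3p rose by more than the median at D1 and D28 and by less at D3, D7 and D14, and miR-22-5p rose by less than the median on every day. The share of miR-1a-3p, a muscle miRNA that restrains cardiomyocyte growth, moved the other way. It took 70.6%, 70.7%, 60.2% and 61.4% of the counts in the CM libraries of D0 and 35.1%, 29.2%, 37.1% and 39.9% at D14. The TMM factors of the same libraries were 0.289 to 0.357 at D0 and 1.91 to 2.04 at D14. In shares of a library, a lower level of miR-1a-3p and a higher level of the other miRNAs cannot be told apart.

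**Figure D2:**
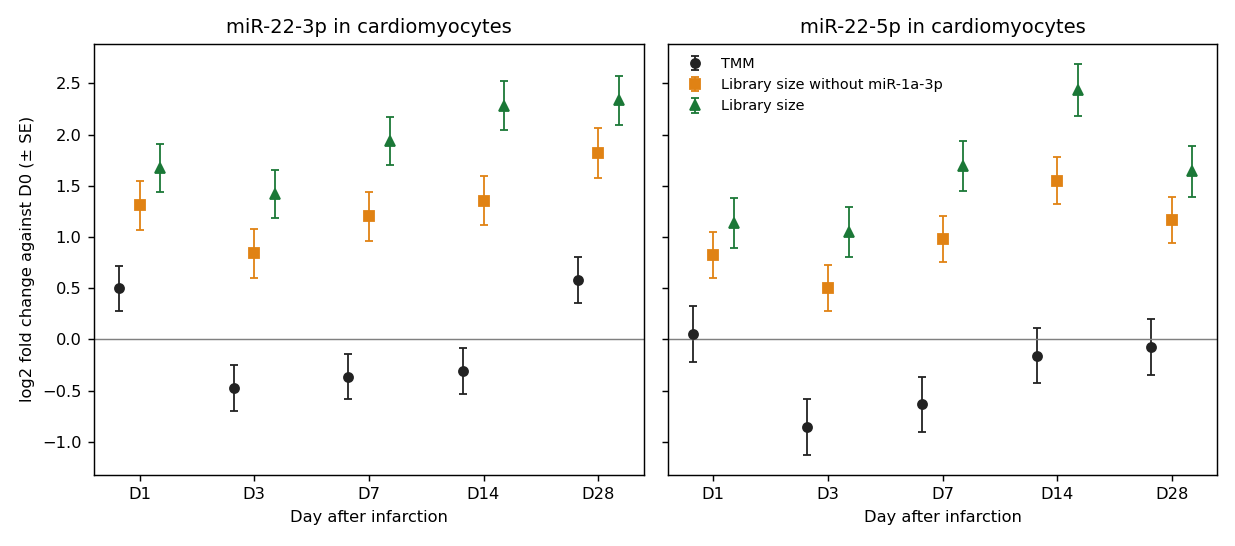
Log2 fold change against D0 (y axis, with SE derived from the edgeR F statistic) of miR-22-3p and miR-22-5p in CMs at each day (x axis) under 3 scalings: TMM (circles), library size after removal of miR-1a-3p (squares) and library size (triangles). All values by library size lie above 0, between 1.05 and 2.44, whereas those by TMM lie between -0.86 and 0.58.

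On the TMM scale, miR-22-3p in CMs differed between the days (adjusted p = 0.000267 over the 6 days, 73.8% of all miRNAs called), with the highest group means at D1 and D28. The 4 libraries of D0 stood at 7381, 7193, 5956 and 8568 CPM on this scale and those of D28 at 12196, 10089, 10895 and 10350 CPM, without overlap. The rise at D28 was 0.58 on the log2 scale (SE 0.221, adjusted p = 0.0290), where 54.3% of all miRNAs were called. It was lost on leaving out any of 5 of the 8 libraries compared, D0 replicates 1, 2 and 3 and D28 replicates 1 and 3, with adjusted p of 0.0732, 0.0784, 0.0947, 0.0745 and 0.0514. At D1 the value was 0.50 (adjusted p = 0.0948, 25% called). At D3, D7 and D14 the values were -0.47 (adjusted p = 0.0723, 55.2% called), -0.36 (0.148, 69% called) and -0.31 (0.221, 66.9% called), and none of the 3 passed the test. Without D3 replicate 1, the highest of its group, the value at D3 was -0.74 (adjusted p = 0.00574), and without D7 replicate 2 that at D7 was -0.58 (adjusted p = 0.0424).

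The 5p arm in CMs was lower than D0 on this scale at D3 by -0.86 on the log2 scale (SE 0.273, adjusted p = 0.0104) and at D7 by -0.64 (SE 0.272, adjusted p = 0.0415), and its values at D1, D14 and D28 were 0.05, -0.16 and -0.07. The libraries of D0 stood at 202, 259, 310.3 and 329 CPM by TMM and those of D3 at 210, 136, 134 and 127 CPM, so that D3 replicate 1 overlapped with D0. The call at D7 was lost without D0 replicate 2, 3 or 4 or D7 replicate 1, with adjusted p of 0.0550, 0.127, 0.0968 and 0.0546. Over the 6 days the adjusted p was 0.0212, and 0.0598 and 0.0671 without D3 replicate 2 or 4. Scaled by library size after the removal of miR-1a-3p, both arms were higher than D0 on every day, the 3p arm by 0.84 to 1.82 and the 5p arm by 0.50 to 1.55 on the log2 scale. The medians of all miRNAs in these fits were 1.08, 1.78, 1.93, 2.08 and 1.48 from D1 to D28, above the value of the 3p arm at D3, D7 and D14 and above that of the 5p arm on every day. The direction at D3, D7 and D14 in CMs therefore differed between the scalings.

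Markers of other cells moved with these days in the CM libraries. The sum of the 4 CM markers went from a range of 603382 to 709040 CPM at D0 to 311247 to 419381 CPM at D14. Most of this sum was miR-1a-3p, with a median of 514966 CPM over all CM libraries. The medians of miR-133a-3p, miR-208a-3p and miR-499-5p were 3936, 1025 and 8623 CPM. At D7 on the TMM scale these 3 were higher than D0 in CMs (log2 fold change 1.57, 2.05 and 0.81), whereas miR-1a-3p was lower (-2.84). The sum of the 2 EC markers went from 4423 to 9789 CPM at D0 to 19277 to 27651 CPM at D14. The 3 FB markers went from 36.5 to 114 CPM to 1358 to 2188 CPM, and the 4 HC markers from 14.6 to 75.8 CPM to 151 to 182 CPM. The 2 markers of smooth muscle and pericytes fell, from 22682 to 36325 CPM at D0 to 15754 to 18619 CPM at D14. This sum was mostly miR-143-3p (median 15263 CPM over all CM libraries, against 1595 CPM of miR-145a-5p). The 3 markers of red blood cells rose from 1686 to 1929 CPM at D0 to 2024 to 3401 CPM at D14. Their sum was mostly miR-486a-5p (median 2033 CPM over all CM libraries), with 7.83 CPM of miR-451a and 1.82 CPM of miR-144-3p. The markers at 0 were miR-214-3p of FBs and miR-223-3p of HCs, each in 1 CM library, and miR-144-3p of red blood cells in 2. The part of other cells in the values of miR-22 was not tested.

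In FBs, miR-22-3p was lower than D0 at D3, D7 and D14 and did not differ beyond its error at D28. The libraries of D0 held 5207, 3944, 4980 and 4383 CPM. Those of D1 held 4032, 4111, 3920 and 3816 CPM, those of D3 3790, 3544, 2866 and 2052 CPM, and those of D7 3983, 3545, 3683 and 3957 CPM. At D14 they held 3693, 3252, 3441 and 3340 CPM, and at D28 4396, 4053, 4485 and 4019 CPM. D3 and D14 lay below D0 without overlap, and the other days overlapped with D0 or, at D28, lay within its range.
On the TMM scale the change over the 6 days passed the test (adjusted p = 1.50e-05, 66.4% of 563 miRNAs called). The fall was largest at D3, by -0.93 on the log2 scale (SE 0.144, adjusted p = 7.16e-06, 41.9% called), and it was -0.51 (SE 0.143, adjusted p = 0.00480) at D7 and -0.46 (SE 0.143, adjusted p = 0.0182) at D14, days on which 45.6% and 24.5% of miRNAs were called. The value at D1 was -0.41 (adjusted p = 0.0711, 8.35% called) and that at D28 was 0.00 (adjusted p = 0.994, 5.86% called). The median of all miRNAs was between -0.07 and 0.06 on these days. At D1, D3, D7 and D14 the libraries lay below those of D0 without overlap on this scale (p = 0.0286 in the exact permutation test). With library size only, the falls were -0.60 at D3 (adjusted p = 0.00103, 44.9% called) and -0.43 at D14 (adjusted p = 0.0236, 23.4% called), whereas the value of -0.29 at D7 (adjusted p = 0.103) did not pass. The call at D14 was lost without D0 replicate 1 or 3 or D14 replicate 3, with adjusted p of 0.0544, 0.0697 and 0.0543, and those at D3 and D7 held without any single library of the 8 compared.

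The 5p arm in FBs moved little. Its counts lay between 70.2 and 101.1 CPM in all 24 libraries, with group means between 80.5 CPM at D14 and 90.3 CPM at D1. No day passed the test, and the largest value was -0.27 at D3 (SE 0.148, adjusted p = 0.146). The libraries of D3, D7 and D14 still lay below those of D0 without overlap on the TMM scale (p = 0.0286 in the exact permutation test). In edgeR 41.9%, 45.6% and 24.5% of all miRNAs were called on these days, and the share without overlap was not determined. Scaled by library size, the libraries of each of these days overlapped with those of D0. The log2 differences from D0 were then 0.04, 0.03 and -0.07. The CM markers in FBs were low at all days, from 776 to 5825 CPM summed over 4 markers, with miR-208a-3p at 0 in 1 FB library. Other markers stood higher. The EC markers ranged from 14696 to 44946 CPM in FBs, with 20888 to 30916 CPM at D0 and 24931 to 44946 CPM at D3. Those of smooth muscle and pericytes ranged from 17888 to 35780 CPM, with 24568 to 27493 CPM at D0 and 18475 to 25390 CPM at D3. The HC markers ranged from 72.4 to 371 CPM. The part of such cells in the values of miR-22 in FBs was not tested.

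**Figure D3:**
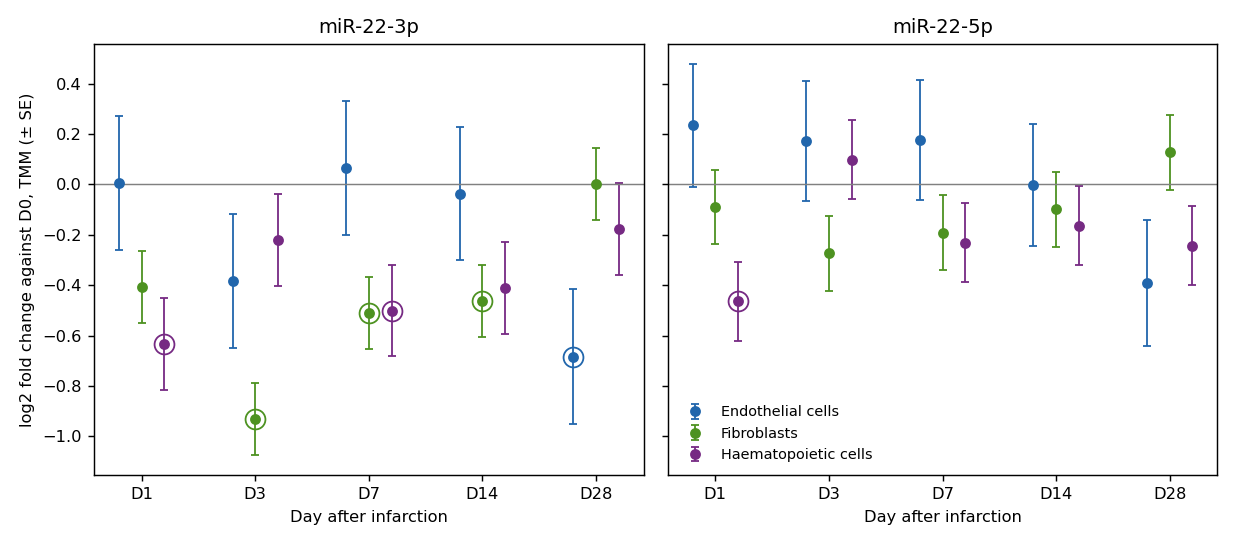
Log2 fold change against D0 on the TMM scale (y axis, with SE derived from the edgeR F statistic) of miR-22-3p (left) and miR-22-5p (right) at each day (x axis) in ECs, FBs and HCs, with a ring around values with an adjusted p under 0.05. The ringed values of miR-22-3p are all below 0, from -0.46 to -0.93, and the only ringed value of miR-22-5p is that of HCs at D1.

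In ECs, the level of miR-22-3p was lowest in 2 libraries of D28. The libraries of D0 held 2633, 2364, 1569 and 1811 CPM, and those of D28 held 2106, 730, 756 and 1437 CPM. The 2 low libraries, replicates 2 and 3, were measured with 1336 and 481 counts of the 3p arm. The values between were 1419, 2157, 2906 and 2060 CPM at D1, 1772, 1674, 1475 and 1534 CPM at D3, 2435, 2855, 3063 and 2838 CPM at D7, and 2113, 2582, 2688 and 1944 CPM at D14. In CPM all libraries of D3 lay below those of D7 and D14, a comparison that was not tested. On the TMM scale D3 still lay below D7 but overlapped with D14, where replicate 4 stood at 1605 CPM against 1929 CPM in D3 replicate 1. At D28 miR-22-3p was lower by -0.68 on the log2 scale (SE 0.267, adjusted p = 0.0369, 47.3% of 421 miRNAs called), although the 4 libraries overlapped with those of D0. The call was lost without D0 replicate 1 or 2 or D28 replicate 2 or 3, with adjusted p of 0.112, 0.0746, 0.0740 and 0.124. At D1, D3, D7 and D14 the values were 0.00, -0.38, 0.06 and -0.04 and did not pass the test. Of all miRNAs, 0%, 17.6%, 22.1% and 13.8% were called on these days. The count of 0 at D1 was from edgeR, which gave 18 miRNAs an unadjusted p under 0.05.

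The 5p arm in ECs was counted thinly, with 18 to 1641 counts per library. It held 61.7, 45.3, 42.1 and 41.3 CPM at D0 and 45.7, 23.0, 28.3 and 39.7 CPM at D28. Its log2 fold change at D28 was -0.39 (SE 0.252, adjusted p = 0.201), and no day passed the test. Without D28 replicate 1 or 4 the value at D28 was -0.63 or -0.68 and passed it (adjusted p = 0.0287 and 0.0303). Over the 6 days neither arm passed it, with an adjusted p of 0.105 for the 3p arm and 0.271 for the 5p arm, against 58% of all miRNAs called. With library size only the values were 0.0110 and 0.0212. The 3p arm also passed without any 1 of 7 libraries (D7 replicates 2, 3 and 4, D14 replicates 1 and 2, D28 replicates 1 and 4, 0.00297 to 0.0246), and the 5p arm without any 1 of these except D14 replicate 2 (0.0413 to 0.0491). CM markers in the EC libraries, summed over the 4 markers, ranged from 75957 to 134289 CPM at D0 and from 21003 to 80702 CPM at D28. The EC markers went from 174749 to 215247 CPM at D0 to 103768 to 224231 CPM at D28. The FB markers went from 2016 to 2845 CPM to 2195 to 7798 CPM, and the HC markers from 2221 to 2597 CPM to 982 to 3318 CPM. Those of smooth muscle and pericytes went from 48200 to 62913 CPM to 22370 to 102093 CPM, and those of red blood cells from 1058 to 2012 CPM to 1888 to 4246 CPM. The part of such cells in the level of miR-22 was not tested.

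In HCs, 1 library decided the level of D0. The libraries of D0 held 3763, 3849, 10172 and 3605 CPM of miR-22-3p, and the third of these, replicate 3, rested on 186 counts in a total of 18286 (95% Wilson interval 8817 to 11732 CPM, which covers counting error only). Its value for miR-22-5p was 109 CPM from 2 counts (30.0 to 399 CPM), within the range of the others at 118, 128 and 104 CPM. The libraries of D1 held 3600, 3611, 4582 and 4072 CPM of the 3p arm, those of D3 4820, 5347, 5276 and 7124 CPM, and those of D7 4663, 3804, 4711 and 3993 CPM. At D14 they held 4586, 4236, 4385 and 4117 CPM, and at D28 5024, 6199, 5058 and 3667 CPM. Apart from that library of D0, the highest value was in D3.
On the TMM scale miR-22-3p was lower than D0 at D1 by -0.63 (SE 0.182, adjusted p = 0.00465, 53.6% of 608 miRNAs called) and at D7 by -0.50 (SE 0.182, adjusted p = 0.0243, 49.2% called). Without replicate 3 of D0 the value at D1 was -0.36 (adjusted p = 0.0380) and that at D7 was -0.23 (adjusted p = 0.201). Neither passed with library size only, where the values were -0.36 (adjusted p = 0.189) and -0.25 (adjusted p = 0.342). The call at D7 was also lost without D7 replicate 2, 3 or 4, with adjusted p of 0.0591, 0.151 and 0.0544. At D3, D14 and D28 the values were -0.22, -0.41 and -0.18 (0.05, -0.14 and 0.10 without replicate 3 of D0) and did not pass the test, where 59.4%, 28.3% and 23.8% of all miRNAs were called.

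The miR-22-5p arm in HCs was highest at D3 as a share of the library, with 172, 155, 168 and 220 CPM at D3 and 118, 128, 109 and 104 CPM at D0, without overlap. The other days lay between 99.8 and 145 CPM. By library size the difference at D3 was 0.62 (SE 0.154, adjusted p = 0.000991, 63.2% called, median of all miRNAs 0.54). On the TMM scale it was 0.10 (SE 0.157, adjusted p = 0.613). Without D3 replicate 2 it was 0.41 (adjusted p = 0.0462), and without D3 replicate 4, the highest of its group, 0.23 (adjusted p = 0.244). The TMM factors were computed anew in these fits, so the shifts are not the weight of 1 library alone. At D1 miR-22-5p was lower by -0.46 on the TMM scale (SE 0.157, adjusted p = 0.0141), and the value was -0.04 (adjusted p = 0.857) with library size. The call at D1 was lost without D0 replicate 2 (adjusted p = 0.0802), and without D0 replicate 3 the value was -0.49 (adjusted p = 0.00913). Over the 6 days both arms passed the test in HCs, with an adjusted p of 0.0260 for the 3p arm and 0.0212 for the 5p arm and 72.5% of all miRNAs called. These calls were lost without any 1 of 6 libraries in the 3p arm (D1 replicates 1 and 2, D3 replicates 1, 2 and 4, D7 replicate 3) and any 1 of 3 in the 5p arm (D1 replicates 1 and 2, D3 replicate 4), with adjusted p up to 0.182 and 0.123. In the same libraries the sum of the 4 CM markers ranged from 85776 to 132287 CPM at D0, from 63579 to 130538 CPM at D1, from 38493 to 64736 CPM at D3 and from 25975 to 45415 CPM at D7. The 4 HC markers ranged from 6819 to 10015 CPM at D0, from 18244 to 25731 CPM at D1 and from 12370 to 23649 CPM at D7. The 2 EC markers went from 54905 to 91837 CPM at D0 to 33177 to 56859 CPM at D1 and 16579 to 24856 CPM at D7, and the 2 markers of smooth muscle and pericytes from 21695 to 32350 CPM to 9426 to 15094 CPM and 5660 to 8954 CPM. The part of such cells in the change of miR-22 was not tested.

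The change over the days differed between the cell types in both arms. The test over all terms of cell type by day gave an adjusted p of 1.38e-06 for miR-22-3p and of 0.00437 for miR-22-5p, where 76.3% of 712 miRNAs were called. Each cell type was then set against the mean change of the other 3. CMs differed in the 3p arm (adjusted p = 7.85e-05) and in the 5p arm (adjusted p = 0.0126), where 59.6% of all miRNAs were called. In the 3p arm the change in CMs exceeded that of the others by 1.03 at D1 (SE 0.244, 20.5% called) and by 1.03 at D28 (SE 0.244, 39.7% called). The median of all miRNAs was 0.55 in both contrasts. ECs differed in the 3p arm (adjusted p = 3.04e-05) and in the 5p arm (adjusted p = 0.0222, 45.2% called), and at D28 the change of the 3p arm was lower by -1.09 (SE 0.245, 39.9% called, median -0.51). HCs differed with an adjusted p of 0.00827 in the 3p arm and 0.0349 in the 5p arm (39.7% called), with -0.74 at D1 for the 3p arm (SE 0.245, 26.8% called, median -0.46). Without these 3 farthest libraries (HC D0 replicate 3, EC D28 replicate 3 and FB D0 replicate 2) this value was -0.53 (adjusted p = 0.0910), and the test of HCs was lost in the 3p arm without the libraries of replicate 2, 3 or 4. In the 5p arm the test of HCs was lost without those of any replicate number (adjusted p from 0.132 to 0.367), that of CMs without replicate 1, 2 or 3 (0.0505, 0.103 and 0.104) and that of ECs without replicate 1 or 2 (0.270 and 0.204). FBs did not pass this test in the 3p arm (adjusted p = 0.275) or in the 5p arm (adjusted p = 0.739), against 40.3% of all miRNAs called, although the fall of the 3p arm was called within FBs. Scaled by library size, FBs passed the test as well, with adjusted p of 0.00160 and 0.00106.

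The ratio of the 5p arm to the 3p arm is free of the scaling, because both arms are counted in the same library. Its log2 value, tested with limma after adding 0.5 to both counts, was -5.004 ± 0.36 in CMs, -5.14 ± 0.29 in HCs, -5.24 ± 0.30 in ECs and -5.48 ± 0.25 in FBs (mean ± SD, n = 24). FBs had the lowest share of the 5p arm. The ratio was higher in CMs than in FBs by 0.47 on the log2 scale (SE 0.0781, adjusted p = 2.2e-07), in ECs than in FBs by 0.24 (adjusted p = 0.00658) and lower in FBs than in HCs by -0.33 (adjusted p = 0.000293). CMs were above ECs by 0.23 (adjusted p = 0.00715). CMs and HCs (0.14, adjusted p = 0.127) and ECs and HCs (-0.09, adjusted p = 0.280) did not pass the test. Of the 145 hairpins with enough counts on both arms, 68.3% were called between CMs and ECs, 68.3% between CMs and FBs, 55.9% between CMs and HCs, 56.6% between ECs and FBs, 61.4% between ECs and HCs and 38.6% between FBs and HCs. The difference between CMs and ECs was lost without the libraries of replicate 2 (0.19, adjusted p = 0.0930) and that between ECs and FBs without those of replicate 1 (0.17, adjusted p = 0.102).

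**Figure D4:**
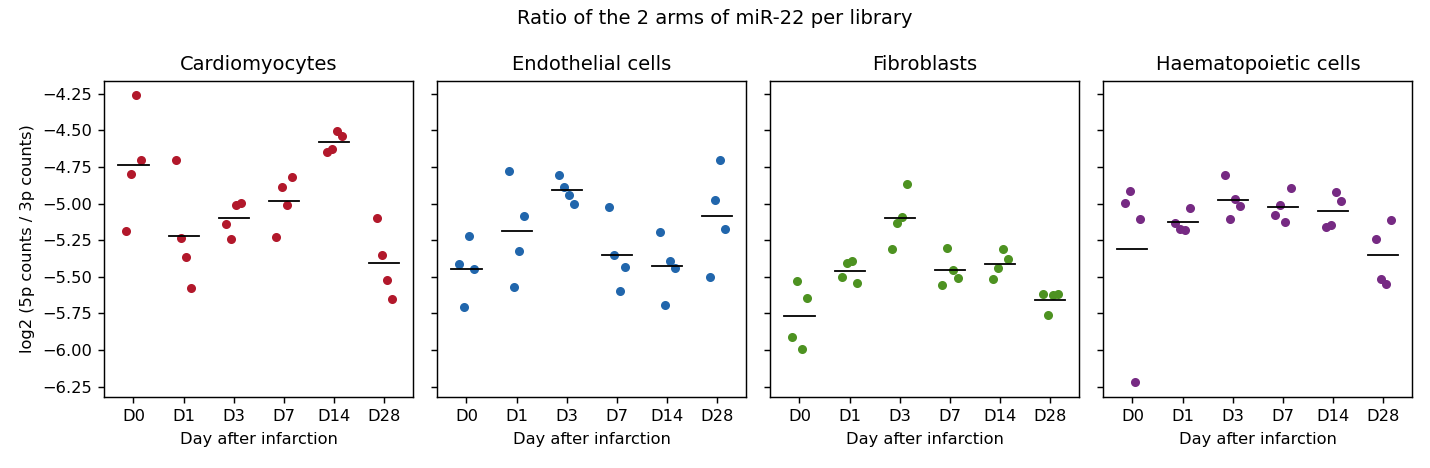
Log2 ratio of miR-22-5p to miR-22-3p counts (y axis) in each library by day (x axis), with 1 panel per cell type, a point per library and a line at the mean of 4. The FB libraries of D3 stand above those of D0 without overlap, the CM libraries of D28 lie mostly below those of D0, and HC D0 replicate 3 is the lowest library at -6.22.

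In FBs the ratio rose at D3, when the log2 change on the TMM scale was -0.93 in the 3p arm and -0.27 in the 5p arm. The log2 ratio was -5.91, -5.53, -5.99 and -5.65 in the libraries of D0 and -5.31, -5.13, -5.09 and -4.87 in those of D3, without overlap. The difference was 0.67 (SE 0.136, adjusted p = 0.00152), where 25.2% of 147 hairpins were called. At D1, D7, D14 and D28 it was 0.31, 0.31, 0.36 and 0.11 and did not pass the test, with 3.4%, 22.4%, 3.4% and 0.68% of hairpins called. Over the 6 days the change in FBs passed the test (adjusted p = 0.00605, 49.7% called). Per 100 counts of the 3p arm, the FB libraries had 1.66, 2.16, 1.57 and 2.00 counts of the 5p arm at D0 and 2.52, 2.85, 2.93 and 3.42 at D3. Without FB D0 replicate 2, the farthest library of its group, the value of 0.39 at D7 (adjusted p = 0.0422) and that of 0.44 at D14 (adjusted p = 0.0446) passed the test too.

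In CMs the ratio was lowest at D28. The log2 ratio was -5.19, -4.80, -4.26 and -4.70 at D0, -4.65, -4.63, -4.50 and -4.54 at D14, and -5.10, -5.35, -5.52 and -5.65 at D28. The groups of D0 and D28 overlapped by 1 library. The difference at D28 was -0.67 (SE 0.237, adjusted p = 0.0194), where 66.7% of 99 hairpins were called. At D1, D3, D7 and D14 it was -0.48, -0.36, -0.25 and 0.16 and did not pass the test, with 42.4%, 68.7%, 70.7% and 71.7% of hairpins called. Without D0 replicate 1 or D1 replicate 1 the value at D1 passed it (-0.63 and -0.65, adjusted p = 0.0309 and 0.0260). The call at D28 was lost without D0 replicate 3 (-0.51, adjusted p = 0.0737) or D28 replicate 4 (-0.59, adjusted p = 0.0602). Over the 6 days the adjusted p was 0.0335 (70.7% called), and it was between 0.0527 and 0.0748 without any 1 of D14 replicates 1 to 4 or D28 replicates 2 to 4. The ratio did not pass the test over the days in ECs (adjusted p = 0.282, 38.5% called) or in HCs (adjusted p = 0.599, 15.1% called). In ECs the log2 ratio was -5.41, -5.70, -5.22 and -5.45 at D0 and -4.80, -4.89, -4.94 and -5.002 at D3, without overlap. The difference of 0.54 did not pass the test (adjusted p = 0.302), and the share of all hairpins without overlap was not determined.

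Over the 24 groups of cell type and day, the means of the 2 arms on the log2 TMM scale were correlated with r = 0.982. The miRNAs most like miR-22-3p in their levels were sought among 169 with a mean of at least 100 CPM. These were miR-185-5p (r = 0.953), miR-328-3p (r = 0.909) and let-7a-1-3p (r = 0.897), the last with counts identical to those of let-7c-2-3p. Those most like miR-22-5p were miR-185-5p (r = 0.961), miR-128-3p (r = 0.888) and miR-328-3p (r = 0.879). These correlations describe the order of the levels, in which CMs stand apart from the other cells, and the groups share the scaling of 1 fit.

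Other miRNAs described as acting on cardiomyocyte growth were examined at D7, in the middle of the time course. They were listed with earlier results of these data known, so the counts below are a description. A first list held 14 miRNAs linked to more growth when raised. It includes close relatives, such as miR-199a-5p and miR-199b-5p, which are not separate observations. In CMs on the TMM scale, 11 of the 14 were higher and 1 was lower than D0, with a median log2 fold change of 1.49 against 0.35 for all miRNAs, where 38.8% of all miRNAs were called higher and 30.2% lower. The largest changes were those of miR-212-3p (4.04), which with miR-132-3p is known to promote hypertrophy, miR-208b-3p (3.18), which is encoded within the gene of the beta-myosin heavy chain, miR-199b-5p (2.93) and miR-199a-5p (2.92), of which the second is among the FB markers. The 1 member that fell was miR-155-5p (-0.68, named after its value was seen), an miRNA of immune cells. On library size alone all 14 were higher, where 80.2% of all miRNAs were.
A second list held 7 miRNAs linked to less growth when raised. In CMs 4 of the 7 were lower and 2 were higher, with a median of -0.59. The fall was largest for miR-1a-3p (-2.84) and for miR-378a-3p (-1.06), which restrains growth signalling in cardiomyocytes, whereas miR-133b-3p (1.67) and miR-133a-3p (1.57), muscle miRNAs that oppose growth, rose. On library size alone 6 of the 7 were higher and 1 was lower. On the TMM scale at D7 in CMs, miR-22-3p had -0.36 and no call, and miR-22-5p had -0.64 and was called lower (edgeR, adjusted p = 0.0415).

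In ECs 2 of 13 tested members were higher and 1 was lower (17.8% and 4.28% of all miRNAs), led by miR-199b-5p (1.54), miR-199a-5p (1.53) and miR-208a-3p (-1.27). In FBs 3 of 13 were higher and 4 lower (24.7% and 21%), led by miR-155-5p (2.64), miR-195a-5p (-0.95), a member of the miR-15 family, miR-23a-3p (-0.86) and miR-212-3p (0.83). In HCs 3 of 14 were higher and 5 lower (29.8% and 19.4%), whereas 8 were higher and 3 lower on library size alone. They were led by the CM miRNAs miR-499-5p (-2.20) and miR-208a-3p (-1.96), then miR-195a-5p (-1.39) and miR-208b-3p (-1.25). Of the second list 2 of 7 were lower and none higher in ECs on the TMM scale, miR-378a-3p (-1.05) and miR-30a-5p (-0.81), where 4.28% of all miRNAs were lower. In FBs 4 were lower and none higher, led by miR-1a-3p (-1.27), and in HCs 6 were lower and 1 higher, where 21% and 19.4% of all miRNAs were lower. On library size alone 1 was lower and 1 higher in ECs, 1 lower and none higher in FBs, and 5 lower and 1 higher in HCs. The first list in FBs then had 3 higher and 2 lower, and in ECs 2 higher and none lower. Among all miRNAs under this scaling, 96 of 421 were called higher and 5 lower for ECs. For FBs 165 of 563 were called higher and 67 lower, and for HCs 281 of 608 higher and 74 lower. On the TMM scale the members that fell furthest in HCs were miR-133b-3p (-2.30), miR-133a-3p (-2.23), miR-1a-3p (-2.01) and miR-378a-3p (-1.68), of which miR-133a-3p and miR-1a-3p are among the CM markers.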

How the data were processed

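Small RNA was sequenced in 96 libraries from 4 cell types at 6 days. The authors trimmed adaptors, aligned the reads to the mature sequences and hairpins of miRBase and deposited raw counts per miRNA, 1 table of mature miRNAs and 1 of hairpins per library, 192 in all. The submitters' processing notes name Trim Galore, Bowtie2, SAMtools and mm10. Their versions and the alignment settings are not given in the sources used here, nor is the treatment of reads that match several miRNAs. The line of reads without a match, 25.6% to 83.0% of a table's total, entered neither library sizes nor tests. Groups and replicate numbers were taken from the labels. The labels call the 4 pools of a group biological replicates, and the study's methods also call them technical, so p-values measure the spread between these pools.

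Counts were analysed with edgeR 4.0.16 in R 4.3.3 (TMM, filterByExpr, robust quasi-likelihood test) on the 24 libraries of each cell type for the days, and on all 96 for cell types and for cell type by day. The SE of an edgeR value was derived as its absolute log2 fold change divided by the square root of its F statistic. The log2 ratios of the arms were tested with limma 3.58.1, with a pseudocount of 0.5 and a minimum mean of 10 counts per arm. The p-values were adjusted with Benjamini-Hochberg over all features tested, with a threshold of 0.05. Single comparisons also had an exact permutation test (two-sided, 70 arrangements) on log2 CPM. It was run for the arms of miR-22 only, so the share of all miRNAs whose groups did not overlap is not known. DESeq2 1.42.0, other scalings and filters, the replicate number as a block and the removal of libraries were alternatives. In edgeR the TMM factors and the spread were estimated anew whenever libraries were left out. A value that shifted does therefore not give the weight of those libraries alone. The scripts were tested on simulated data. The values given first use all libraries. The study removed 1 small RNA replicate each from EC D28, HC D0 and FB D0 as outliers, without naming it. Alternatives therefore left out the farthest library of each of these groups, or replicate 4 of each. The members and the lists of growth-linked and marker miRNAs were chosen with earlier results of these data known. Named besides both arms were the 3 miRNAs most like each arm, up to 4 members of each growth list per cell type with the largest called changes, and markers. The total RNA-seq of the study was not analysed here.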

Additional observations from a re-analysis of the deposited data

Results flagged for a closer look

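In 4 of 72 groups of 4 libraries, counting both arms in CPM and their ratio in each group, 1 library stood apart from the other 3 by Dixon's test, which flags about 1 in 20 groups by chance. CM D7 replicate 2 had 430.9 CPM of miR-22-5p, where the others of its group had 230, 233 and 265 CPM. FB D28 replicate 2 had a log2 ratio of 5p to 3p of -5.76, where the others had -5.62, -5.63 and -5.62. HC D0 replicate 3 had 10172 CPM of miR-22-3p and a log2 ratio of -6.22, and this library held 18286 counts of mature miRNAs, of which 186 were miR-22-3p and 2 were miR-22-5p.

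The change over the days differed between cell types in the test of the difference itself, in edgeR on all 96 libraries. For miR-22-3p the adjusted p was 1.38e-06 over all cell types, 7.85e-05 for CMs, 3.04e-05 for ECs and 0.00827 for HCs against the others. For miR-22-5p it was 0.00437 over all cell types, 0.0126 for CMs, 0.0222 for ECs and 0.0349 for HCs. Without EC D28 replicate 3, FB D0 replicate 2 and HC D0 replicate 3 the adjusted p for HCs was 0.00508 in the 3p arm and 0.0276 in the 5p arm, and that for ECs was 0.000733 in the 3p arm and 0.0735 in the 5p arm.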

How the results depend on the processing

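Scaling had the largest effect. With library size only, the values in CMs against D0 reversed to 1.42, 1.94 and 2.28 at D3, D7 and D14 in the 3p arm and to 1.05, 1.69, 2.44 and 1.64 at D3, D7, D14 and D28 in the 5p arm, and with library size without miR-1a-3p to 0.84, 1.20 and 1.36 and to 0.50, 0.98, 1.55 and 1.17. The test over days of the 5p arm in CMs, whose day values turned, gave an adjusted p of 5.43e-07 and 5.10e-05. The level of FBs minus HCs became -0.30 and -0.39 in the 3p arm and -0.61 and -0.70 in the 5p arm. The adjusted p over days fell in ECs, to 0.0110 and 0.0107 in the 3p arm and 0.0212 and 0.0180 in the 5p arm, and rose in HCs to 0.266 and 0.303 in the 3p arm. FBs then differed from the other cell types in the change over days with library size only (0.00160 and 0.00106).

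Without a filter on low counts, FBs minus HCs became -0.0669 (adjusted p = 0.877) and -0.41 (0.00120), the 3p arm in ECs passed the test over days (0.0112), and 7 tests missed it. These were the 5p arm over days in CMs (0.157) and HCs (0.221), the difference between cell types of the 5p arm overall (0.0999), in CMs (0.0668), ECs (0.333) and HCs (0.394), and of the 3p arm in HCs (0.0861). With DESeq2 the 3p arm passed over days in ECs (0.00391) and missed in HCs (0.0726), the 5p arm passed in FBs (0.0328), and its difference in ECs missed (0.212). With the D0 libraries alone, the 3p arm in FBs minus HCs was 0.0024 and the 5p arm in ECs minus FBs -0.54 (adjusted p = 0.0546). Without the 3 farthest libraries, the difference of the 5p arm in ECs gave 0.0735, and the ratio in ECs minus HCs was -0.17 (0.0349). Single days also moved. With D0 and the day fitted alone, the 3p arm missed the test at D28 in CMs (0.0995) and ECs (0.0551) and at D1 and D7 in HCs (0.0698 and 0.0806). DESeq2 missed HCs at D7 (3p, 0.207) and D1 (5p, 0.132). Without the filter, the 3p arm in FBs missed at D7 (0.0672) and D14 (0.161), and the 5p arm in CMs at D3 (0.252) and D7 (0.626). Without replicate 4 of EC D28, FB D0 and HC D0, both arms passed over days in ECs (0.0246 and 0.0453).

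Deviations of same-numbered libraries had a median r of 0.065 over 144 pairs of cell types at the same day. Of these pairs 58 were above 0.1 and the lowest was -0.67, and libraries with different numbers had a median of -0.018. Over 80 pairs of days the median was -0.0019, against 0.0080 for different numbers. The numbers were not taken as pairing, although so weak a check cannot exclude that some pools shared mice. With the replicate block, the adjusted p of the difference of the 5p arm was 0.0567 in ECs and 0.0721 in HCs, and that of the ratio over days in CMs was 0.0576. It gave the 3p arm in CMs at D3 a call (-0.50, 0.0437) and changed no other test over days, level, day or difference.

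On leaving out 1 library at a time, the adjusted p over days ranged from 0.00698 to 0.0671 (5p, CMs), 0.00297 to 0.209 (3p, ECs), 0.0413 to 0.502 (5p, ECs), 0.0125 to 0.182 (3p, HCs), 0.00931 to 0.123 (5p, HCs) and 0.0112 to 0.0748 (ratio, CMs). On leaving out 1 replicate number, that of the difference between cell types ranged from 0.00200 to 0.128 (5p, overall), 0.0359 to 0.104 (5p, CMs), 0.000639 to 0.270 (5p, ECs), 0.132 to 0.367 (5p, HCs), 0.0270 to 0.629 (3p, FBs) and 0.0209 to 0.193 (3p, HCs). The ratio was 0.19 to 0.27 for CMs minus ECs and 0.17 to 0.30 for ECs minus FBs. Of these repeats of the tests over days, levels and differences, 352 kept their side, 34 lost a call and 14 gained one, and over all alternatives 89 results had the other sign with neither value past the threshold. The pseudocount and the minimum per arm changed no call. The causes were not tested. Depth limits the 5p arm in ECs (18 counts at the lowest) and HC D0 replicate 3 (2 counts).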

Other observations

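Reads were also counted on the whole Mir22 hairpin, in a table the comparisons above did not use. Per 100 counts of both arms together, the hairpin had a median of 5.20 counts over the 96 libraries (1.06 to 8.71). By cell type it was lowest in FBs with 4.27, followed by CMs with 5.19, ECs with 5.46 and HCs with 5.92. How reads were divided between the mature and the hairpin tables is not given in the sources used here, so these counts are no measure of the precursor.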
